A study of Rattus norvegicus with 6 samples.

Results

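Fibroblast nuclei of the rat ileum were examined in the single-nucleus libraries of rats with severe acute pancreatitis (SAP) and of sham-operated controls (CON). A nucleus was counted as fibroblast when it passed quality control (at least 1200 UMIs, at least 500 genes and at most 5% mitochondrial UMIs), held UMIs of at least 3 of the genes Col3a1, Col1a1, Col1a2, Pdgfra, Dcn, Lum, Col6a3, C7 and Adamdec1, and held UMIs of fewer than 3 of the smooth muscle genes Myh11, Actg2, Cnn1, Des, Tagln, Mylk, Acta2 and Lmod1. A UMI, or unique molecular identifier, marks 1 captured transcript. The members were thus selected on the UMIs of these genes. This rule took 612 of 40970 passing nuclei (1.49%), out of 90461 barcodes. Another 395 nuclei held at least 3 genes of both lists and were left out.

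All 6 rats were male wild-type Sprague-Dawley animals of 6 weeks, and each gave 1 ileum library, so that n was 3 rats per group. For SAP, 3% sodium taurocholate, a bile salt, was infused against the flow into the pancreatic duct at 0.1 mL per 100 g of body weight, and CON rats had the abdomen opened without infusion. All animals were killed after 24 h, and the labels put all libraries in batch 1. The deposited tables were not cut alike, since the lowest barcode held 1000, 545 and 1000 UMIs in CON 1, 2 and 3 and 502, 1000 and 1000 in SAP 1, 2 and 3, and the share of barcodes that passed was 79.9, 26.2 and 77.7% in CON 1, 2 and 3 and 12.2, 78.6 and 76.4 in SAP 1, 2 and 3. The injury was induced in the pancreas, so the ileum was measured as a remote organ, in whole-tissue nuclei without sorting. The study's histology showed injury of the SAP ileum as well, with shortened villi and necrosis of the epithelium.

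Intestinal fibroblasts deposit the collagens and glycoproteins of the lamina propria and submucosa. They also secrete Wnt ligands, R-spondins, BMPs and BMP antagonists that set the balance of renewal and differentiation along the crypt and villus. Fibroblasts with high Pdgfra lie under the epithelium, Adamdec1-expressing fibroblasts lie in the lamina propria, and fibroblasts near the crypt base and in the submucosa carry Pi16, Cd81 or Grem1. During inflammation they can take up chemokine, complement and matrix remodelling programmes.

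The libraries contributed very unequally. The fibroblast nuclei numbered 84, 34 and 184 in CON 1, 2 and 3 and 14, 12 and 284 in SAP 1, 2 and 3. Their summed UMIs were 330380, 66414 and 548255 in CON 1, 2 and 3 and 44565, 94762 and 965217 in SAP 1, 2 and 3, and their median UMIs per nucleus were 2347, 1602 and 1859 in CON 1, 2 and 3 and 1872, 5329.5 and 2100 in SAP 1, 2 and 3. Levels are given as CPM, counts scaled to the same total in every library, and 1 UMI was worth 22.4 CPM in SAP 1, 15.1 CPM in CON 2 and 1.04 CPM in SAP 3. The values of SAP 1, SAP 2 and CON 2 rest on few molecules, and SAP 3 alone held 284 of the 612 nuclei. Barcodes are numbered in the tables and not given as sequences, and 20692 of these names occurred in more than 1 library, so shared droplets could not be counted.

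The genes of the rule chose the members, so their levels are a description without a test. Col3a1, the chain of type III collagen, was found in 62.4% of the 612 nuclei, the complement component gene C7 in 60.6%, and Lum, the proteoglycan lumican, in 5.72%. Col3a1 stood at 403, 587 and 383 CPM in CON 1, 2 and 3 and 471, 127 and 368 in SAP 1, 2 and 3. Pdgfra, the receptor of platelet-derived growth factor, stood at 157, 647 and 255 CPM in CON 1, 2 and 3 and 157, 31.7 and 359.5 in SAP 1, 2 and 3. It was highest in CON 2 and lowest in SAP 2. Dcn, the proteoglycan decorin, was highest in CON 1, with 926, 391 and 133 CPM in CON 1, 2 and 3 and 202, 52.8 and 175 in SAP 1, 2 and 3. Adamdec1, a metalloproteinase of the lamina propria, varied less, with 315, 120.5 and 416 CPM in CON 1, 2 and 3 and 359, 179 and 319 in SAP 1, 2 and 3.

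Summed over the 9 rule genes, the level was 3354, 4126 and 2092 CPM in CON 1, 2 and 3 and 2154, 580.4 and 2381 in SAP 1, 2 and 3. In all other passing nuclei the same sum was 71.8, 57.95 and 204 CPM in CON 1, 2 and 3 and 80.3, 45.7 and 259 in SAP 1, 2 and 3. The 12 nuclei of SAP 2 thus stood apart, with the lowest sum, a median of 5329.5 UMIs per nucleus and all 12 of them holding at least 3 epithelial genes, and the label of fibroblast is not well borne out there. At the edge of the rule, 325 nuclei held exactly 3 rule genes, 153 held 4, and 75 held 5, while 888 nuclei just outside held 2.

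**Figure D1:**
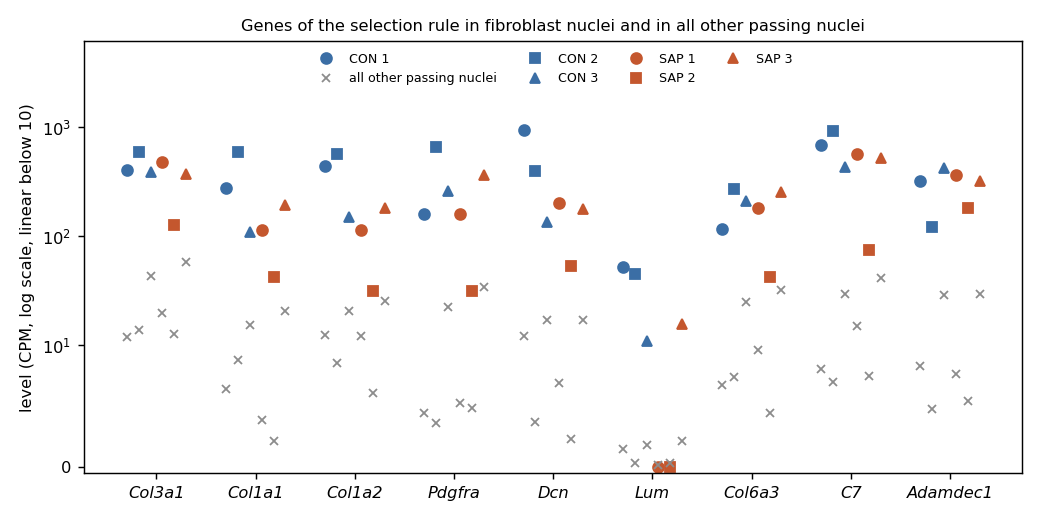
Levels of the 9 genes of the selection rule, in CPM of all UMIs of the fibroblast nuclei of each library (coloured symbols, 1 per library) and of all other passing nuclei of the same library (grey crosses), on an axis that is logarithmic above 10. Nearly all coloured symbols lie above the crosses, Lum in SAP 1 and SAP 2 being listed at 0, and SAP 2 has the lowest level of each of the other genes but Adamdec1.

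RNA of other cell types was present in these nuclei. The 12 epithelial markers fixed for the check (Epcam, Vil1, Cdh17, Lgals4 and others) were all detected in every library, and summed to 4804, 3945 and 7017 CPM in CON 1, 2 and 3 and 8011, 8706 and 5743 in SAP 1, 2 and 3. Other passing nuclei held 6794, 6415 and 6658 CPM in CON 1, 2 and 3 and 8516, 11378 and 7307 in SAP 1, 2 and 3, so the fibroblast nuclei reached the same order of level. At least 3 epithelial genes were present in 518 of the 612 nuclei and at least 3 of 10 pan-immune genes in 184. The most abundant epithelial gene was Lgals4, a galectin of enterocytes, at 1921 CPM in SAP 2 against 884 CPM in CON 1. The part of this RNA in the levels of other genes was not tested.

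Lymphocyte and neutrophil markers were highest in SAP 3. The pan-immune list, led by Ptprc or Arhgap15 in most libraries, summed to 905, 316 and 890.1 CPM in CON 1, 2 and 3 and 426, 359 and 2075 in SAP 1, 2 and 3. The B and plasma cell list, led by Pax5 in SAP 3, summed to 36.3, 90.3 and 268 CPM in CON 1, 2 and 3 and 0, 10.6 and 667 in SAP 1, 2 and 3, and the T cell list, led by Skap1 in all libraries but CON 2, to 529.7, 120.5 and 332 CPM in CON 1, 2 and 3 and 269, 317 and 690 in SAP 1, 2 and 3. The neutrophil list summed to 6.05, 0 and 5.47 CPM in CON 1, 2 and 3 and 44.9, 10.6 and 528 in SAP 1, 2 and 3, with 6 of its 7 genes detected in SAP 3 and Camp at 0. In CON 2 all 7 were at 0. The macrophage list, led by C1qa or C1qc, ranged from 63.3 CPM in SAP 2 to 329.9 CPM in CON 1. Mast cell genes were nearly absent, at 0 in 4 libraries and at 1.82 CPM in CON 3 and 19.7 CPM in SAP 3.

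Among other stromal types, the pericyte list, led by Pdgfrb in 4 libraries, summed to 212, 271 and 323 CPM in CON 1, 2 and 3 and 494, 148 and 393 in SAP 1, 2 and 3. The interstitial cell of Cajal list (Kit, Ano1 and Etv1) had all 3 genes in every library, from 42.2 CPM in SAP 2 to 136 CPM in CON 2. The mesothelial list, which includes Msln and Wt1, reached 206 CPM in CON 1 with all 6 genes detected, and was at 0 throughout in CON 2 and SAP 1. The glial and neuronal list stayed at 46.6 CPM or less and the adipocyte list at 118 CPM or less. The endothelial list ran from 127 CPM in SAP 2 to 403 CPM in SAP 3, where Pecam1 led it. The smooth muscle genes of the rule summed to 336, 723 and 664 CPM in CON 1, 2 and 3 and 471, 464 and 491 in SAP 1, 2 and 3, with Mylk in 46.9% of the nuclei and Cnn1 in 1.47%.

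Genes outside the rule also set these nuclei apart. Of 5333 genes that passed the low-count filter and were not rule genes, 405 (7.59%) were higher than in all other passing nuclei in each of the 6 libraries, and 124 of these were at least 5 times as high when the libraries were pooled. These values come from the same nuclei as the rule, so they are given without a test, and the genes named here were chosen after their values were seen. Lama1, a laminin chain of basement membranes, stood furthest above other nuclei. It ranged over the libraries from 21.1 to 241 CPM against 1.51 to 9.800 CPM in other nuclei. Lama2, the laminin chain of mesenchymal basement membranes, ranged from 31.7 to 467 CPM against 4.36 to 23.9 CPM in other nuclei, and Col5a2, a chain of type V collagen, from 73.9 to 467 CPM against 4.55 to 34.1 CPM in other nuclei. Svep1, a large adhesion protein of the matrix, ranged from 63.3 to 527 CPM against 4.18 to 24.9 CPM in other nuclei.

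Secreted regulators belonged to the same set. Bmp4, a BMP ligand that restrains stem cell renewal, ranged from 42.2 to 146 CPM against 2.999 to 17.7 CPM in other nuclei. Sfrp1 and Dkk2 bind Wnt ligands or their receptors. Sfrp1 ran from 10.6 CPM in SAP 2 to 157 CPM in SAP 1. Cxcl12, a chemokine for leukocytes carrying Cxcr4, ranged from 10.6 to 130.2 CPM against 2.403 to 12.5 CPM in other nuclei. C1s, a protease of the classical complement pathway, was highest in CON 1 at 327 CPM and lowest in SAP 2 at 52.8 CPM. Mmp2, a gelatinase, ranged from 21.1 to 105 CPM against 0.794 to 11.97 CPM in other nuclei. Enzyme genes were found as well, among them Cyp7b1, an oxysterol hydroxylase, and Aldh1a3, which makes retinoic acid. Hpse2, a non-cleaving relative of heparanase, reached 1189 CPM in SAP 1, and its lowest level was 299.7 CPM in CON 1.

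The niche ligands were sparse in single nuclei. Of 19 genes in the Wnt and R-spondin list, 18 had a UMI in at least 1 fibroblast nucleus, and all 18 of those were higher, pooled over libraries, than in other nuclei. Lists of other cell types had the same order, such as all 10 pan-immune genes, so it is not particular to niche ligands. Some of these orders rest on very few molecules, with 1 UMI in all for Sfrp5, 3 for Wnt11 and 4 for Wnt2. Wnt5b was pooled at 54.6 CPM against 16.2 CPM in other nuclei, but smooth muscle nuclei held slightly more, at 57.4 CPM. Wnt4 was pooled at 28.3 against 3.396 CPM in other nuclei, and Wnt5a, a non-canonical ligand, at 14.6 against 2.14 CPM. Wnt2b, a canonical ligand, had 20 UMIs in all, and these came from CON 3 and SAP 3. Rspo3, a potentiator of Wnt signalling in the crypt, had 23 UMIs, of which 17 came from SAP 3. It was lower in these nuclei, at 11.2 CPM pooled, than in smooth muscle nuclei, at 17.04 CPM. Grem1, a BMP antagonist, had the same order, at 28.3 and 37.6 CPM, and 44 of its 58 UMIs came from SAP 3. None of these 3 passed the low-count filter, so they were not compared between groups. The pooled levels of the 2 classes weigh the libraries differently. The fibroblast pool drew most on SAP 3 (965217 UMIs) and the smooth muscle pool most on CON 1 (3007624 UMIs), and the order within libraries is not given. Foxl1, a marker of telocytes under the epithelium, was at 0 in CON 1, CON 2, SAP 1 and SAP 2.

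In the other matrix lists, all 25 collagen genes outside the rule were higher, pooled, in fibroblast than in other nuclei, as were 39 of the 41 matrix glycoprotein genes present in the tables and 37 of 38 remodelling genes. Col4a1, a basement membrane collagen, was pooled at 272 CPM in fibroblast nuclei and at 124 CPM in smooth muscle nuclei. By contrast, 5 of 11 MHC class II genes and 5 of 22 class I and peptide processing genes were higher than in other nuclei. Lists of other cell types had this order too, such as all 10 pan-immune, all 8 B and plasma cell and all 6 mesothelial genes. Of the 12 epithelial genes 1 had it. The order is thus not particular to matrix genes, and its share over all genes is not given.

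Clustering the 612 nuclei without the rule genes gave 9 clusters. They are described by their leading genes and by marker lists, and no test was made, since the clusters were built on the same counts. Cluster 1 (141 nuclei) had the highest sum of the 7-gene lamina propria list, at 1963 CPM against 635 CPM in cluster 4, but Adamdec1, a gene of the rule, gave most of it. Without Adamdec1 the sums were 493 and 549.8 CPM, so the cluster was left unnamed. Its leading genes were S100a3, Scube1, Pcdh11x, Adgrl3 and Col6a5, and Fgfr2, Postn, Angpt1 and Ntf3 followed. Scube1 had UMIs in 71.6% of its nuclei and in 19.96% of the other fibroblast nuclei. Cluster 1 made up 10.7, 5.88 and 27.2% in CON 1, 2 and 3 and 35.7, 41.7 and 24.6 in SAP 1, 2 and 3. SAP 1 and SAP 2 had the highest shares, with 5 nuclei each.

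Cluster 4 (88 nuclei) was led by Igfbp6, Gsn, Flrt2, Zfpm2 and Fbln2, with Tnfaip6, Vcan, Ptx3, Ccdc80, Col14a1 and the complement factor Cfb behind them. It held the highest sums of the rule genes (6320.4 CPM) and of the submucosal Pi16/Cd81 list (662 CPM). It also held 571 CPM of the mesothelial list with all 6 of its genes, so it was left unnamed. Cluster 4 made up 26.2, 2.94 and 10.3% in CON 1, 2 and 3 and 14.3, 8.33 and 15.1 in SAP 1, 2 and 3. Cluster 6 (58 nuclei) was led by Scube2, Adamtsl3, Kcnn3, Snhg11, Plcb1, Pbx3 and Gucy1a1, the last a subunit of the nitric oxide receptor, and Kcnn3 is a calcium-activated potassium channel. Its rule genes summed to 4207 CPM, its lamina propria list to 112 CPM, and no mesothelial gene was detected. Cluster 6 made up 8.33, 44.1 and 9.78% in CON 1, 2 and 3 and 7.14, 0 and 5.99 in SAP 1, 2 and 3. It was the largest cluster of CON 2, with 15 of 34 nuclei.

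The next 4 clusters were led by genes of other cell types or had weak fibroblast genes. Cluster 2 (114 nuclei) had rule genes at 1348 CPM and the epithelial list at 7394 CPM. Cluster 3 (97 nuclei) was led by Fabp4, Cfd, Hba-a1, Itln1 and Plvap, and held the highest sums of the neutrophil list (1206 CPM), of the endothelial list (731 CPM) and of the subepithelial list (1753 CPM). Cluster 5 (66 nuclei) was led by the lymphocyte genes Pax5 and Bank1, with 3413 CPM of the pan-immune list. Cluster 7 (19 nuclei) was led by the enterocyte apolipoprotein genes Apoa4 and Apoa1.

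The smallest clusters were 8 and 9. Cluster 8 (16 nuclei) was led by the muscarinic receptor gene Chrm2 with Cacna1c, Igfbp5 and Tnc, and had the highest pericyte list (1373 CPM) and smooth muscle rule genes (1709 CPM). Cluster 9 (13 nuclei) came from CON 2 alone and may be that library and not a type.

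**Figure D2:**
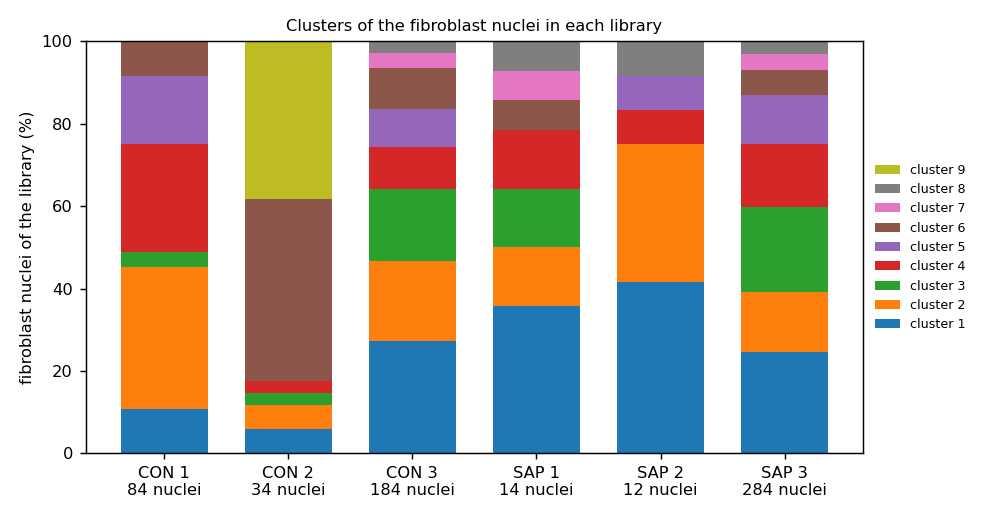
Make-up of the fibroblast nuclei of each library by cluster, in percent of that library's fibroblast nuclei, with the number of nuclei under each bar. CON 3 and SAP 3, the libraries with most nuclei, look alike, while CON 2 is mostly clusters 6 and 9 and CON 1 mostly clusters 2 and 4.

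The share of fibroblast nuclei was compared between groups. Among passing nuclei it was 0.909, 0.543 and 2.19% in CON 1, 2 and 3 and 0.439, 0.201 and 3.598 in SAP 1, 2 and 3. The highest share was in SAP 3 and the lowest in SAP 2, so the SAP libraries enclosed the whole range of CON. The means were 1.21% ± 0.863 (SD, n = 3) in CON and 1.41% ± 1.896 (SD, n = 3) in SAP. The difference of 0.1999 percentage points was smaller than the spread within either group (exact two-sided permutation test, p = 1, where 3 libraries against 3 allow no p below 0.1). After each nucleus was thinned to 1200 UMIs the shares were 0.519, 0.463 and 1.295% in CON 1, 2 and 3 and 0.282, 0.06702 and 2.05 in SAP 1, 2 and 3, in the same order of highest and lowest. Without SAP 3 the mean of SAP was 0.3200%, below that of CON. The sign of the difference also turned without CON 2, without nuclei holding epithelial or immune genes and among non-epithelial nuclei (-0.135, -0.199 and -1.32 percentage points). SAP 2 held 2 nuclei without epithelial or immune genes and 3 non-epithelial nuclei, with no fibroblast among them.

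**Figure D3:**
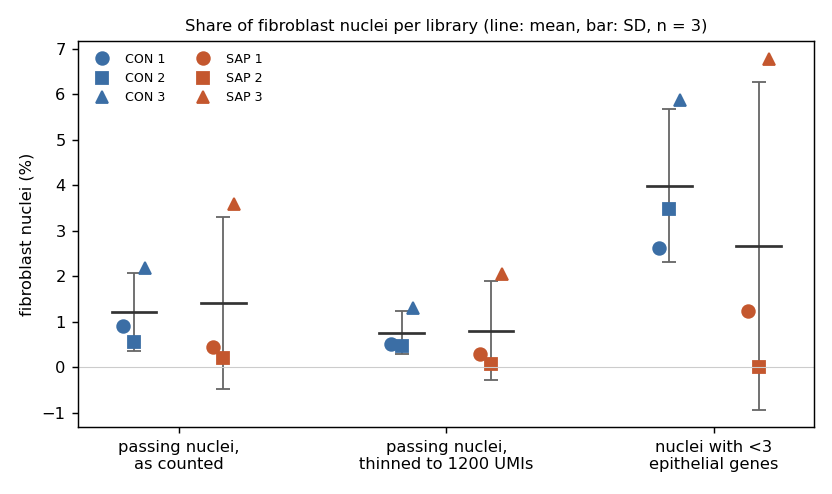
Fibroblast nuclei in percent of all passing nuclei, in percent after thinning every nucleus to 1200 UMIs, and in percent of the nuclei holding fewer than 3 epithelial genes, with 1 symbol per library, the group mean as a line and the SD as a bar. SAP 3 is the highest library and SAP 2 the lowest under each count, the last resting on 0 of 3 nuclei in SAP 2, and the groups overlap throughout.

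Expression in SAP was then compared with CON on the summed counts of each library, and no gene outside the rule passed the test. Among the genes of lowest p were St8sia6, Hmcn2, LOC102549836, Lama2 and Gsn, lower in every SAP library, and Reg4, Blmh and Slc39a14, higher in every SAP library. With edgeR's quasi-likelihood test and Benjamini-Hochberg adjustment, 0 of 5333 genes outside the rule were called, which is 0% of those tested, at an adjusted p under 0.05 and a log2 fold change of at least 0.5. At an unadjusted p under 0.05 there were 45 genes higher in SAP (0.844%) and 61 lower (1.14%). DESeq2 called 3 genes in the same table (Reg4 higher, Hmcn2 and St8sia6 lower). The 3 libraries of SAP lay entirely above those of CON for 197 genes (3.69%) and entirely below for 251 (4.71%). A sum over a library's nuclei can differ because its nuclei belong to other clusters or because they express a gene differently, and these cannot be told apart here. The genes below had the lowest unadjusted p among those without overlap and with a mean of at least 20 CPM, and edgeR called none of them in this fit. Without the low-count filter edgeR called Reg4, St8sia6, Hmcn2, Gucy1a1 and Sparcl1 among others, and at the 1% mitochondrial limit it called Gsn, Gucy1a1 and St8sia6. That limit left 1 fibroblast nucleus in SAP 1 and 7 in SAP 2, so the levels of SAP 1 in that fit are those of a single nucleus.

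St8sia6, a sialyltransferase that builds chains of sialic acid, had the lowest p of all genes. Its level, scaled by TMM as are the levels that follow, was 117, 198 and 189 CPM in CON 1, 2 and 3 and 0, 10.4 and 17.8 in SAP 1, 2 and 3, from 36, 14 and 106 UMIs and 0, 1 and 18 UMIs. Every CON library lay above every SAP library (log2 fold change -3.41 ± 0.53 (SE), adjusted p = 0.224, edgeR). The gene was not particular to fibroblasts, with 0.543 times the level of other nuclei, and it was also lower in smooth muscle nuclei (log2 fold change -4.37, edgeR adjusted p = 0.01801), where it was the only gene called among 10521. Over the alternatives its log2 fold change in fibroblast nuclei ran from -4.46 to -3.05.

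Several genes that were lower in SAP were higher, pooled, in fibroblast than in all other nuclei. Lama2 stood at 269, 438 and 198 CPM in CON 1, 2 and 3 and 122, 31.1 and 93.98 in SAP 1, 2 and 3 (log2 fold change -1.84 ± 0.48 (SE), adjusted p = 0.999, edgeR). It was 12.96 times as high in fibroblast as in other nuclei, and in smooth muscle nuclei, pooled at 17.7 CPM, its log2 fold change was 0.03. Hmcn2, which encodes the matrix protein hemicentin 2, stood at 534, 1765 and 534 CPM in CON 1, 2 and 3 and 244, 51.8 and 170.2 in SAP 1, 2 and 3 (log2 fold change -2.63 ± 0.64 (SE), adjusted p = 0.999). All CON libraries lay above the SAP libraries for both genes, with CON 2 the highest and SAP 2 the lowest for both, as for the sum of the rule genes, and the part of that order was not tested. Hmcn2 was pooled at 379 CPM in fibroblast nuclei and at 276 CPM in smooth muscle nuclei, so it was not particular to fibroblasts. In smooth muscle nuclei its log2 fold change was -1.73. Both kept the lower sign under all 17 alternatives in which they were tested, Lama2 from -2.198 to -1.53 and Hmcn2 from -3.08 to -1.88, the weakest without CON 2.

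Gsn, the actin-severing protein gelsolin and a leading gene of cluster 4, stood at 1421, 353 and 71.5 CPM in CON 1, 2 and 3 and 48.7, 0 and 53.4 in SAP 1, 2 and 3 (log2 fold change -3.97 ± 1.05 (SE), adjusted p = 0.999). CON 1 alone gave 439 of its UMIs, and CON 3 and SAP 3, the libraries with most nuclei, lay close together. Gucy1a1, a leading gene of cluster 6, stood at 80.9, 664 and 122 CPM in CON 1, 2 and 3 and 0, 10.4 and 36.6 in SAP 1, 2 and 3 (log2 fold change -3.196 ± 0.89 (SE), adjusted p = 0.999), with CON 2 far above the rest. Its log2 fold change was -1.93 without CON 2 and -5.07 without SAP 3. Sparcl1, a matricellular protein, stood at 252, 198 and 57.2 CPM in CON 1, 2 and 3 and 0, 10.4 and 41.6 in SAP 1, 2 and 3 (log2 fold change -2.403 ± 0.69 (SE), adjusted p = 0.999), with CON 3 and SAP 3 nearest to each other across the groups. Cluster 4 made up 26.2% of the nuclei of CON 1 and cluster 6 44.1% of those of CON 2, and their part in these differences was not tested. The sign of all 3 genes held under each of the 14 alternatives in which they passed the filter, but without SAP 3 Gsn was at -5.300 and Sparcl1 at -4.45, and with the replicate block Gsn was at -2.73. In smooth muscle nuclei Gsn, Gucy1a1 and Sparcl1 were at -0.09, -1.105 and -1.29.

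The remaining genes of lowest p in that direction were no higher in fibroblasts than in other nuclei. They were Etfbkmt, a mitochondrial methyltransferase (log2 fold change -1.76), Slc7a8, a transporter of neutral amino acids (-1.43), Plch2, a phospholipase C (-1.605), and LOC102549836 (-1.44). In smooth muscle nuclei their log2 fold changes were -1.64, -0.86, -1.36 and -0.999, all of the same sign.

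Among genes higher in SAP, Slc39a14, a zinc importer of the acute-phase response, stood at 107, 56.5 and 96.5 CPM in CON 1, 2 and 3 and 341, 197 and 252 in SAP 1, 2 and 3 (log2 fold change 1.47 ± 0.38 (SE), adjusted p = 0.999, edgeR). The 3 SAP libraries were each above all CON libraries, and SAP 3 gave 255 UMIs. In smooth muscle nuclei its log2 fold change was 0.18. Thbs1, the matricellular protein thrombospondin 1, stood at 38.8, 42.4 and 26.8 CPM in CON 1, 2 and 3 and 97.4, 72.5 and 87.1 in SAP 1, 2 and 3 (log2 fold change 1.33 ± 0.42 (SE), adjusted p = 0.999), a narrow range within each group but with 3 UMIs in CON 2 and 4 in SAP 1. Blmh, the cysteine protease bleomycin hydrolase, stood at 55.03, 28.2 and 100.1 CPM in CON 1, 2 and 3 and 170.5, 311 and 209.7 in SAP 1, 2 and 3 (log2 fold change 1.75 ± 0.44 (SE), adjusted p = 0.999). Thbs1 and Blmh had the same sign in smooth muscle nuclei, at 1.86 and 1.28.

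Reg4 and Itln1 are genes of secretory epithelial cells. Reg4 stood at 3.24, 0 and 17.9 CPM in CON 1, 2 and 3 and 389.6, 114 and 77.2 in SAP 1, 2 and 3 (log2 fold change 3.801 ± 0.83 (SE), adjusted p = 0.999), and Itln1, a lectin that binds microbial glycans, stood at 74.5, 42.4 and 316 CPM in CON 1, 2 and 3 and 4067, 363 and 429 in SAP 1, 2 and 3 (log2 fold change 3.31 ± 0.998 (SE), adjusted p = 0.999). Pooled, Reg4 was 2.03 times and Itln1 0.706 times as high in these as in other nuclei, and without SAP 1 the log2 fold change of Itln1 was 1.304 in place of 3.31. The mitochondrial transcripts ND4 (1.68, 0.97 without SAP 1) and ATP8 (1.405) were also higher. Over the alternatives ND4 fell as low as 0.37, and ATP8 was at 0.81 without SAP 1 and SAP 2. The median share of mitochondrial UMIs in these nuclei was 0.617, 0.118 and 0.288% in CON 1, 2 and 3 and 2.096, 0.754 and 0.473 in SAP 1, 2 and 3. The epithelial list was highest in SAP 1 and SAP 2, and the part of epithelial RNA in these values was not tested. Tp53i13 (2.01), Arhgef18 (1.05) and LOC691352 (1.897) completed the set.

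**Figure D4:**
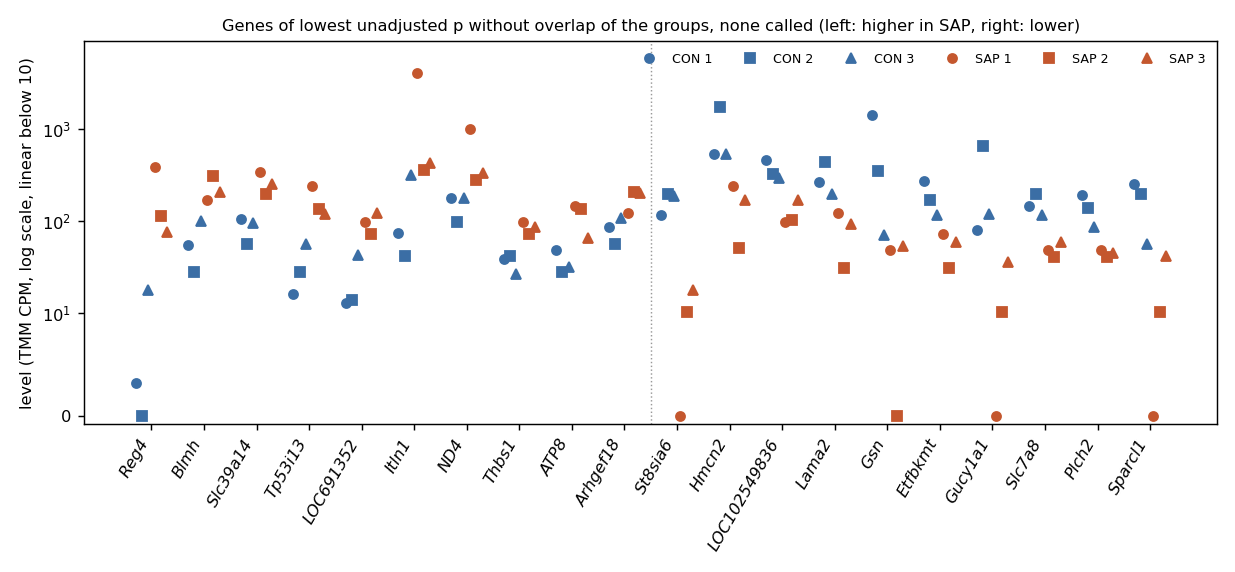
Levels per library, in TMM-scaled CPM on an axis that is logarithmic above 10, of the 10 genes higher (left of the dotted line) and the 10 lower (right) in SAP with the lowest unadjusted p among genes whose groups do not overlap. Each symbol is 1 library, none of the genes was called by edgeR in the fit plotted, though DESeq2 and other settings called some, and zeros in SAP 1 and SAP 2 stand for sums of 44565 and 94762 UMIs in all.

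Gene lists were described by the direction of their tested members, beside a median log2 fold change of 0.02 over all genes tested, of which 2768 were higher and 2565 lower. No member of any list was called, while without the low-count filter edgeR called Sparcl1 and Fbln2 of the matrix glycoproteins and Igfbp6 of the growth factor list. Values of single members rest on few UMIs. Leaving out 1 library moved 32 of the 93 single results followed by over 1.5 times, some of these results being differences from smooth muscle nuclei. Of 42 matrix glycoprotein and proteoglycan genes 23 were tested, 9 higher and 14 lower in SAP (median log2 fold change -0.26). Lama2 and Sparcl1 belong to it, and Lamc1, a widely expressed laminin chain, had overlapping groups (-0.20). Fn1, the fibronectin gene, was chosen after its values were seen and had 25, 9 and 45 UMIs in CON 1, 2 and 3 and 9, 3 and 123 in SAP 1, 2 and 3. Its groups overlapped (log2 fold change 0.32 ± 0.53 (SE), edgeR adjusted p = 0.999).

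Of 25 collagen genes outside the rule 10 were tested, 5 higher and 5 lower in SAP (median log2 fold change -0.05).  Col5a2, of type V collagen, stood at 227, 438 and 257 CPM in CON 1, 2 and 3 and 195, 72.5 and 154 in SAP 1, 2 and 3 (log2 fold change -1.11 ± 0.43, edgeR adjusted p = 0.999), and after thinning its log2 fold change was -0.37. The microfibrillar Col6a1 (-1.26) and Col6a2 (-0.81) were lower as well, and in all 3 genes every SAP library lay below every CON library, against 4.71% of all genes tested. Col6a1 had no UMI in SAP 2, and it was at -0.77 without SAP 2, at -2.51 without SAP 3 and as near to 0 as -0.0312 over the alternatives. For Col6a2 the margin between CON 3 and SAP 1 was small, at 163 against 146 CPM, and without SAP 1 and SAP 2 its log2 fold change was -0.41. Of 38 remodelling genes 10 were tested, 2 higher and 8 lower in SAP (median log2 fold change -0.35). Timp2, an inhibitor of metalloproteinases (-1.14), Loxl2, a crosslinker of collagen (-1.14), and Plod2, a lysyl hydroxylase (-1.01), had the lowest p values of that list. The groups overlapped for Timp2 and Plod2, and Plod2, highest in CON 2 at 452 CPM, was at -0.16 without that library.

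Growth factor lists were mixed. Of 23 TGF-beta pathway genes 15 were tested, 8 higher and 7 lower in SAP (median log2 fold change 0.03), with the inhibitor Smad6 lower (-0.98) and the target Tgfbi and the repressor Skil higher (0.69 and 0.79). The groups overlapped for Tgfbi and Skil. Without SAP 1 and SAP 2 Smad6 was at -0.46, Tgfbi at 0.23 and Skil at 0.49, and the lowest value of Tgfbi over the alternatives was 0.03. The widely expressed ubiquitin ligase Smurf2 was at -0.44. Of 26 PDGF, FGF and IGF genes 12 were tested, 8 higher and 4 lower in SAP (median log2 fold change 0.09). Fgfr2, a receptor of fibroblast growth factors, stood at 178, 155 and 309 CPM in CON 1, 2 and 3 and 97.4, 82.9 and 139 in SAP 1, 2 and 3 (log2 fold change -0.96 ± 0.40 (SE), adjusted p = 0.999), without overlap of the groups. Nrg1, a growth factor for epithelial ErbB receptors, was at 1.18 with its highest level in SAP 3 (355 CPM) and turned to -0.0977 without SAP 3. Pdgfa and Igf1r were at 0.94 and -0.43, and without SAP 1 and SAP 2 they were at 0.0414 and -0.0982.

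In the Wnt and R-spondin list 3 of 19 genes were tested, 0 higher and 3 lower in SAP (median log2 fold change -0.94). Dkk2 (-1.15) and Wnt5b (-0.94) were lower in SAP without overlap, as were 4.71% of all genes tested, and Sfrp1 was at -0.33. Dkk2 had 2 and 1 UMIs in SAP 1 and SAP 2 against 52 in SAP 3. In the BMP list 5 of 23 were tested, 2 higher and 3 lower in SAP (median log2 fold change -0.20). Fstl1, a secreted BMP binder, was lower without overlap (-0.84), and Id1, Bmpr2 and Bmpr1a were at -0.32, -0.20 and 0.22. Of 22 hedgehog response and mesenchymal factor genes 4 were tested, 0 higher and 4 lower in SAP (median log2 fold change -0.12). Ptch1, the hedgehog receptor, was at -0.24, and the transcription factor genes Gli3 and Sox6 were at -0.19 and -0.05, all with overlap. The sign turned without SAP 1 and SAP 2 for Ptch1 (0.33) and Gli3 (0.26), and with at least 4 rule genes for Sox6 (0.64).

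Among immune-facing genes, 2 of 26 cytokine and chemokine genes were tested. Cxcl12 stood at 139, 98.8 and 91.2 CPM in CON 1, 2 and 3 and 48.7, 10.4 and 75.2 in SAP 1, 2 and 3 (log2 fold change -1.02 ± 0.52 (SE), adjusted p = 0.999), with all SAP libraries below CON, and Il34, a ligand of the Csf1 receptor, was at 0.28. The lymphoid stroma chemokines Ccl21 and Ccl19, named after their values were seen, were not tested, with 85 of 94 UMIs of Ccl21 and 30 of 36 of Ccl19 in SAP 3, where lymphocyte markers were also highest. Of 34 cytokine receptor and NF-kB target genes 16 were tested, 12 higher and 4 lower in SAP (median log2 fold change 0.31). Il1r1, the interleukin-1 receptor, stood at 25.9, 28.2 and 159 CPM in CON 1, 2 and 3 and 219, 51.8 and 233 in SAP 1, 2 and 3 (log2 fold change 1.06), with CON 3 among the SAP libraries. Il4r (1.05), Il6st, the shared receptor of the interleukin-6 family (0.97), and Stat3 (0.35) had the same sign, and their groups overlapped. Without 1 library the lowest values were 0.52 for Il1r1 and 0.51 for Il6st (both without SAP 3) and 0.55 for Il4r (without SAP 2), and Il1r1 reached 2.66 without CON 3. Of 18 complement genes 6 were tested, 2 higher and 4 lower in SAP (median log2 fold change -0.41), with C4b at -1.13, C1r at -0.78, C1s at -0.38 and the inhibitor Cd55 at 0.39. Without CON 1 the sign of C1s and Cd55 turned (0.86 and -0.0388), as did that of C1s with the replicate block (0.14), and C1r was at -0.13 without SAP 1 and SAP 2.

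The antigen presentation lists had most members higher. All 8 MHC class II genes that were tested, of 11, had the higher value in SAP (median log2 fold change 0.84). None was called and 1 of the 8, RT1-DMa, had groups without overlap, against 3.69% of all genes tested. Cd74, the invariant chain, stood at 466, 212 and 840.0 CPM in CON 1, 2 and 3 and 998, 725 and 805 in SAP 1, 2 and 3 (log2 fold change 0.69 ± 0.48 (SE), adjusted p = 0.999), with CON 3 above SAP 2 and SAP 3. RT1-Db1 was at 1.13 and RT1-DMb at 0.73, and these 4 genes kept their sign under every alternative in which they were tested. The summed class II list stood at 911, 346 and 1824 CPM in CON 1, 2 and 3 and 2289, 1910.0 and 1886 in SAP 1, 2 and 3 in fibroblast nuclei, and at 1252, 592 and 1428 CPM in CON 1, 2 and 3 and 3110.2, 3628 and 2101 in SAP 1, 2 and 3 in other nuclei. Fibroblast nuclei had the lower level in 5 of the 6 libraries, and the part of RNA from other cells was not tested.

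Of 22 class I and peptide processing genes 15 were tested, 12 higher and 3 lower in SAP (median log2 fold change 0.36). RT1-CE5 (1.37), RT1-CE16 (1.25), RT1-CE4 (1.12) and RT1-A2 (0.91) led it. These class I genes are near-identical copies among which reads can be split. SAP 3 did not exceed the highest CON library for any of the 4, and without SAP 1 and SAP 2 RT1-CE16 was at -0.57. In fibroblast nuclei the summed list stood at 3202, 1942 and 4201 CPM in CON 1, 2 and 3. In SAP 1, 2 and 3 it stood at 5610, 5857 and 3480 CPM. Other nuclei held 3558, 2269 and 3145 CPM in CON 1, 2 and 3 and 6779, 11083 and 3826 in SAP 1, 2 and 3. The part of RNA from other cells in the class I values was not tested. Of 34 interferon response genes 7 were tested, 2 higher and 5 lower in SAP (median log2 fold change -0.15). Rnf213 was at 0.60 and Parp14 at -0.37.

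Of 21 glucocorticoid response genes 10 were tested, 7 higher and 3 lower in SAP (median log2 fold change 0.12). Fkbp5, a chaperone induced by glucocorticoids, stood at 194, 28.2 and 152 CPM in CON 1, 2 and 3 and 365, 342 and 277 in SAP 1, 2 and 3 (log2 fold change 1.22 ± 0.47 (SE), adjusted p = 0.999) and had no overlap. In smooth muscle nuclei its log2 fold change was 1.08. The kinase gene Sgk1 (1.18) and Cebpd (0.81) had overlapping groups, and they were at 0.25 without SAP 2 and 0.36 without SAP 1. Of 24 immediate early genes 10 were tested, 9 higher and 1 lower in SAP (median log2 fold change 0.33), with Zfp36 at 0.62, Junb at 0.49, Fosl2 at 0.23 and Klf4 at -0.47.

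**Figure D5:**
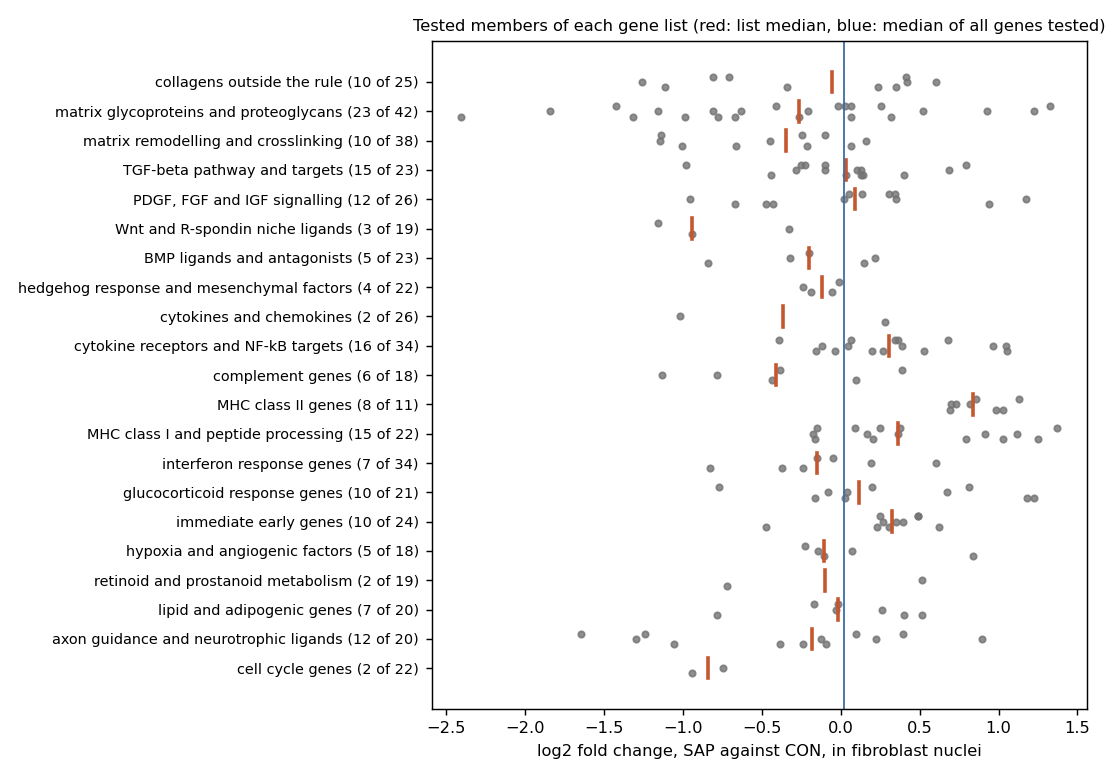
Log2 fold changes of SAP against CON for each tested member (grey point) of 21 gene lists, with the number tested of the number listed, the list median in red and the median of all genes tested, 0.02, as a blue line. The MHC class II list has every tested member above 0, the Wnt and R-spondin, hedgehog and cell cycle lists every tested member below 0, and the other lists lie on both sides.

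Fibroblast nuclei of SAP 3 also held the neutrophil genes S100a8 and S100a9, which form calprotectin. They did not pass the low-count filter with all libraries, and they are named here after their values were seen. S100a8 had 0, 0 and 0 UMIs in CON 1, 2 and 3 and 0, 1 and 241 in SAP 1, 2 and 3, and S100a9 had 2, 0 and 2 UMIs in CON 1, 2 and 3 and 2, 0 and 250 in SAP 1, 2 and 3. Nearly all molecules of both thus came from 1 rat. With all 6 libraries and no low-count filter both were called (edgeR adjusted p = 6.26e-09 for S100a8, and log2 fold change 4.79 and adjusted p = 8.74e-07 for S100a9). S100a9 was called without SAP 2 (log2 fold change 5.31, edgeR adjusted p = 0.0169), and both were called without SAP 1 and SAP 2 (edgeR adjusted p = 0.0103 for S100a8). In that last fit SAP was the single library SAP 3, assumed to vary like CON, so it compares 1 rat with the controls. The other nuclei of SAP 1 held 1082 CPM of the neutrophil list and those of SAP 3 196 CPM, and the part of RNA from other cells in these values was not tested.

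Changes in fibroblast nuclei were compared with those in smooth muscle nuclei of the same libraries, in 1 model with the library as a term. There were 1763 smooth muscle nuclei, 264, 184 and 794 in CON 1, 2 and 3 and 62, 67 and 392 in SAP 1, 2 and 3. The change between SAP and CON differed for 1 of 8903 genes (0.0112%), and 67 and 139 genes had an unadjusted p under 0.05 with the fibroblast change higher and lower. The gene was Tnc, which encodes tenascin C, a matrix glycoprotein of injured tissue. In smooth muscle nuclei Tnc stood at 28.9, 97.2 and 114 CPM in CON 1, 2 and 3 and 557, 118 and 296 in SAP 1, 2 and 3. In fibroblast nuclei it stood at 49.7, 191 and 205 CPM in CON 1, 2 and 3 and 257, 71.4 and 147 in SAP 1, 2 and 3. These fibroblast levels rest on 16, 14 and 118 UMIs in CON 1, 2 and 3 and 12, 7 and 153 in SAP 1, 2 and 3. The smooth muscle mean was 80.2 ± 45.2 CPM in CON and 324 ± 221 CPM in SAP, with all SAP libraries above CON, while the fibroblast means of 148 ± 85.9 and 159 ± 93.5 CPM overlapped (SD, n = 3). In every CON library Tnc was higher in fibroblast nuclei, and in every SAP library it was higher in smooth muscle nuclei. The change was lower in fibroblasts (difference of log2 fold changes -1.84, SE 0.33, edgeR adjusted p = 0.02998).

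The call of Tnc was lost without CON 2, SAP 1, SAP 2 or SAP 3 (adjusted p = 0.142, 0.219, 0.07099 and 0.247), while its difference stayed between -2.303 and -1.61 under all alternatives run. The smooth muscle genes of the rule summed to 1438, 7806 and 4431 CPM in CON 1, 2 and 3 and 7964, 1869 and 3036 in SAP 1, 2 and 3 in the smooth muscle nuclei, with the lowest sums in CON 1 and SAP 2. Tnc was also a leading gene of cluster 8, which held 5 nuclei of CON 3, 1 each of SAP 1 and SAP 2 and 9 of SAP 3, and the part of that cluster was not tested. Not called were Chgb, a granin of endocrine cells (difference 3.01, adjusted p = 0.228), Cpa6 (2.73), Slc39a14 (1.34), Sec11c (1.87) and Mettl24 (2.22), the genes of lowest p with a fibroblast change above that of smooth muscle. For Slc39a14 the fibroblast mean was 83.6 CPM in CON and 246 CPM in SAP, and the smooth muscle means were 123 and 138 CPM.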

How the data were processed

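Tables of raw UMI counts, gene by barcode, were deposited by the authors, 1 per library and made with dnbc4tools per the study's methods. The submitters' processing notes list Seurat 4.3.0 and the build mRatBN7.2, and no coordinates were used. Nuclei were filtered at the study's thresholds, and no caller of doublets was run. Nuclei that also held epithelial or immune genes were left out as an alternative. Counts of fibroblast nuclei were summed per library, so that the rat was the replicate. Summed depth ranged from 44565 to 965217 UMIs, and a count of 0 allows up to 3 counts, 3.11 to 67.3 CPM.

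Sums were tested with edgeR 4.0.16 under R 4.3.3 (filterByExpr, TMM, robust quasi-likelihood fit). DESeq2 1.42.0 was an alternative. Differences between fibroblast and smooth muscle nuclei were tested as the interaction of class and group, with the library as a term. Shares were compared by an exact permutation test. Levels of the rule and marker lists are CPM of the library total, and those of tested genes are TMM-scaled. Tests were tried on simulated counts first. Fibroblast nuclei were clustered with scanpy 1.11.5 and leidenalg 0.10.2 (Python 3.11.15), on 1000 variable genes without the rule genes, 15 components centred per library, 15 neighbours and a resolution of 0.6.

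The members and lists were chosen with earlier results of these data known. Named were called genes, then up to 10 per direction by unadjusted p without overlap and with a mean of at least 20 CPM. From each list came the member of highest mean and the 3 of lowest p, and from the comparison with smooth muscle up to 5 per direction. No test was made over a list. Results of some genes that this rule named are not reported here. Replicate numbers are not said to pair rats, and p-values measure the spread between rats. The study's spatial data were not analysed here.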

Additional observations from a re-analysis of the deposited data

Results flagged for a closer look

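Tnc, tenascin C, drew attention because its change between SAP and CON differed between 2 cell classes by a test of the difference itself. The change in fibroblast nuclei less that in smooth muscle nuclei was -1.84 on the log2 scale (SE 0.33, edgeR adjusted p = 0.02998). In fibroblast nuclei SAP 1 was the highest of the 6 libraries, from 12 UMIs, and CON 1 the lowest, from 16 UMIs. The groups overlapped there, while all 3 smooth muscle values of SAP lay above those of CON. Counted with at least 4 rule genes, which left 6 fibroblast nuclei in SAP 1 and 4 in SAP 2, the difference was -2.303 (edgeR adjusted p = 2.17e-05). With DESeq2 it was -1.85 (adjusted p = 0.0488). The call was lost without CON 2, SAP 1, SAP 2 or SAP 3, with edgeR adjusted p = 0.142, 0.219, 0.07099 and 0.247.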

How the results depend on the processing

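No gene was called under a library-total scaling, the block, at least 4 rule genes, thinning, nuclei of at most 5000 UMIs (an alternative added after seeing the data), genes above other nuclei, or without CON 2 and SAP 1. Calls numbered 3 with DESeq2, 18 without a low-count filter, 3 with at most 1% mitochondrial UMIs (Gsn, Gucy1a1 and St8sia6 lower) and 2 without SAP 1 and SAP 2 (added after seeing the data). The 1% limit left 1 fibroblast nucleus in SAP 1 and 7 in SAP 2, and the limit of at least 4 rule genes left 6 and 4. Leaving out 1 library gave 0 to 1 calls. The difference from smooth muscle was called for 2 genes with DESeq2, 13 without a filter, 14 with library totals, 22 with at least 4 rule genes and 8 with at most 5000 UMIs (added). Leaving out 1 library gave 0 to 72 calls, with 72 without CON 3, 32 without CON 1 and 0 without each other library. The share differed by -0.199 percentage points without nuclei holding epithelial or immune genes (exact permutation test, p = 1) and by -1.32 among non-epithelial nuclei (exact permutation test, p = 0.6), both reversed, where SAP 2 had 2 and 3 such nuclei with no fibroblast among them, and by -0.893 to 0.806 without 1 library, reversed without CON 2 or SAP 3. Gene fits without nuclei holding epithelial or immune genes were not run, since SAP 2 then had no fibroblast nucleus and SAP 1 had 1. The causes were not tested.

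Libraries of the same replicate number correlated at 0.129, 0.0212 and -0.0735 in their deviations from the group means. Those of unlike number ran from -0.179 to 0.140. The sums are sparse, so these values cannot tell whether the numbers pair the rats. With the block 0 genes were called and the share difference was 0.1999 percentage points. Of 93 single results followed, 73 kept 1 sign throughout. These are the changes of single genes and the named differences from smooth muscle nuclei. Signs opposite to the main value were found with the replicate number as a block Sfrp1 0.0917, C1s 0.14, with at least 4 rule genes Bmpr1a -0.0137, Bmpr2 0.0605, Sox6 0.64, Fosl2 -0.01300, Slit3 0.25, with at most 1% mitochondrial UMIs Gli3 0.0216, Sox6 0.02502, Fosl2 -0.0277, Ldha -0.45, after thinning to 1200 UMIs Bmpr1a -0.16, Lrp1 0.41, Slit3 0.39, among genes at least as high as in other nuclei Sox6 0.0919, without CON 2 and SAP 1 Bmpr2 0.32, Gli3 0.0387, Sox6 0.13, Il34 -0.0256, Vegfc 0.0895, Ldha -0.25, with nuclei of at most 5000 UMIs Lamc1 0.13, Ptch1 0.0611, Gli3 0.24, Lrp1 0.12 and without SAP 1 and SAP 2 Lamc1 0.23, Bmpr1a -0.21, Ptch1 0.33, Gli3 0.26, RT1-CE16 -0.57, Vegfa 0.0639, Ldha -0.0349, Hpgd -0.17, Lrp1 0.38, Slit3 0.26. Without 1 library the log2 fold changes that crossed 0 ranged from -0.0388 to 0.91 for Cd55, -0.89 to 0.86 for C1s, -0.19 to 0.85 for Fosl2, -0.26 to 1.19 for Ldha, -0.53 to 0.28 for Slit3, -0.63 to 0.0687 for Bmpr2, -1.43 to 0.19 for Ptch1, -0.55 to 0.44 for Sox6, -0.62 to 0.14 for Lamc1, -0.73 to 0.0538 for Sfrp1, -0.01195 to 0.42 for Bmpr1a, -0.39 to 0.12 for Gli3, -0.80 to 0.22 for Lrp1, -0.0977 to 2.18 for Nrg1, -1.32 to 0.89 for Ebf1.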

Other observations

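Further lists bear on other roles of fibroblasts. Of 20 axon guidance and neurotrophic genes 12 were tested, 4 higher and 8 lower in SAP (median log2 fold change -0.18), against 0.02 over all genes tested. Sema5a, a semaphorin, stood at 159, 212 and 100.1 CPM in CON 1, 2 and 3 and 48.7, 41.4 and 71.2 in SAP 1, 2 and 3 (log2 fold change -1.29, edgeR adjusted p = 0.999), without overlap, and it was 0.732 times as high as in other nuclei. Nrp2, a receptor of semaphorins and Vegfc, was at -1.65 and Robo2, a Slit receptor, at -1.06, with CON 2 highest for both. Without CON 2 they were at -0.59 and -0.41. Slit3, the ligand, was high in CON 1, CON 3, SAP 1 and SAP 3 (699, 567, 657 and 594 CPM) and low in CON 2 and SAP 2 (169 and 114 CPM), so that its spread lay within the groups.

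Of 20 lipid and adipogenic genes 7 were tested, 3 higher and 4 lower in SAP (median log2 fold change -0.01). Ebf1, a transcription factor of mesenchymal precursors and of B cells, ranged from 20.7 CPM in SAP 2 to 530.3 CPM in SAP 3, and B cell markers were also highest in SAP 3. Abca8a, a transporter of the lamina propria list, was at -0.78, and Lrp1 at -0.17. Of 18 hypoxia and angiogenic genes 5 were tested, 2 higher and 3 lower in SAP (median log2 fold change -0.11), with Hif1a at 0.84, Vegfa at -0.14, Vegfc at -0.22 and Ldha at 0.07. Of 19 retinoid and prostanoid genes 2 were tested, Aldh1a3 (-0.72) and Hpgd, which inactivates prostaglandins (0.52). Of 22 cell cycle genes 2 were tested, Mki67 (-0.94) and Top2a (-0.74), both less abundant than in other nuclei. No gene of these lists was called.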
